A study of Mus musculus with 26 samples.

Results

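The Krüppel-like factors (Klf), the specificity proteins (Sp) and the Zbtb factors are zinc finger transcription factors whose labelled mRNA was followed through a uridine chase in oligodendrocyte progenitor cells (OPCs) and oligodendrocytes (OLs). Members were chosen by symbol alone, as every listed transcript whose name begins with Zbtb or Klf and a digit, or is Sp with a single digit. This gave 51 of the 10104 transcripts listed for either cell type, of which 37 were Zbtb, 10 were Klf and 4 were Sp. The OPC list of 8530 transcripts held 40 of them and the OL list of 9751 held 50. Both lists shared 39, and the same 39 had a half-life in all 5 replicates.

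OPCs were mouse cells of the 129S/SvEv strain, made from epiblast stem cells and grown with bFGF and PDGFA. For OLs, such OPCs were first passaged without bFGF and then differentiated with noggin, IGF-1, cyclic AMP, NT3 and thyroid hormone (T3). In both, 5-ethynyluridine (5-EU) was incorporated into new RNA for 24 h and then replaced by uridine, and labelled RNA was pulled down at 0, 1, 2, 4 and 6 h. There were 3 OPC replicates (15 libraries) and 2 OL replicates (10 libraries). Cultured cells of 1 strain that were derived from pluripotent cells are the model, and the OLs were labelled early in differentiation, from 40 h onward. An OPC control without biotin was not analysed here, so no background was subtracted.

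The cell labels were checked against marker genes. All 8 OL markers were listed in OLs and 3 of 8 in OPCs. Mbp, a major myelin protein, was at 1.19 to 3.99 FPKM in OPCs and at 1295 and 3213 FPKM in OLs. All 5 OPC markers were listed in both cell types. Sox11 was lower in OLs, but Pdgfra, the PDGF receptor of OPCs, was higher there (11.5 to 26.5 FPKM in OPCs against 43.9 and 66.9 in OLs). None of the 5 microglial and 4 pluripotency markers was listed in either cell type, 2 of 5 astrocyte markers were listed in OPCs and 4 in OLs, and 1 and 2 of 5 neuronal markers. Of the astrocyte glutamate transporter genes, Slc1a2 was at 22.9 to 37.0 FPKM in OPCs and at 77.4 and 95.7 in OLs, and Slc1a3 at 179 to 224 in OPCs and at 95.5 and 155 in OLs (adjusted p = 0.076). The part of other cells in the results below was not tested.

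Klf and Sp proteins share a set of zinc fingers at the carboxyl end that bind GC-rich and CACCC sequences, and they differ in the regions that recruit coactivators or corepressors. Zbtb proteins join DNA-binding zinc fingers to a BTB domain, which pairs the protein and, in many members, recruits corepressors such as NCOR1 or the ubiquitin ligase scaffold CUL3. Many mRNAs for transcription factors are short-lived, and AU-rich elements in a 3′ UTR, built around the pentamer ATTTA with U for T in RNA, are known sites of regulation of mRNA decay.

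Since mRNA decay is what was measured, the 3′ UTRs of the members were searched for ATTTA on the transcribed strand only, overlapping matches counted. It was present in 43 of 51 members (84.3%) and in 69.9% of the 9981 listed transcripts with a 3′ UTR. The members' 3′ UTRs were longer, with a median of 2326 bases against 1113, and their median density was 1.87 per kb against 1.34 per kb. The highest counts were 21 in Zbtb44 and 19 each in Zbtb1 and Zbtb41, and 8 members had none, among them Klf12, Zbtb12, Zbtb16 and Zbtb45. The windows of 30 bases printed next are from GRCm38 with the GENCODE M21 annotation, are written 5′ to 3′ as DNA and have each ATTTA in capitals. Klf10, Klf6 and Zbtb7a are shown because their half-lives differed most clearly between the cell types or were among the shortest, Zbtb8os because it was the longest-lived member in OPCs, and the others, chosen after their sequences were seen, because 1 window holds 3 pentamers.
Klf10 (chr15:38295573-38295602, minus strand): ctttgtttttgccATTTAtacttgagacca
Klf6 (chr13:5868009-5868038, plus strand): ttgtataagctgtATTTAcaaatcgcagtg
Zbtb7a (chr10:81148917-81148946, plus strand): gacatacaaatctATTTAttcccaagcctg
Zbtb8os (chr4:129346991-129347020, plus strand): tacggaactgtacATTTAaagtgtggcttt
Zbtb1 (chr12:76389391-76389420, plus strand): ttttttaagATTTATTTATTTAttacatgt
Zbtb26 (chr2:37432404-37432433, minus strand): ttactgttATTTATTTAttATTTAatatga
Zbtb33 (chrX:38195417-38195446, plus strand): ATTTAaacacttagaagaATTTAaaATTTA
Zbtb44 (chr9:31071604-31071633, plus strand): atATTTAaagtttATTTAaagttgATTTAa

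Labelled Klf, Sp and Zbtb mRNA was lost faster than that of a typical transcript in all 5 replicates. At 2 h of chase the median member retained 22.5%, 26.1% and 34.7% of its 0 h level in OPC replicates 1, 2 and 3, against 54.7%, 83.3% and 72.0% for all listed transcripts. In OLs the median member retained 39.2% and 42.8% at 2 h, against 72.8% and 62.8%. In every one of the 20 later libraries the median of the members lay below that of all transcripts, although in OPCs the gap was small at 6 h (11.6%, 8.50% and 9.84% against 14.4%, 11.0% and 17.7%). The later levels were scaled by the authors to labelled spike-ins, and in bulk cultures fewer cells of a type and less RNA per cell cannot be told apart.

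**Figure D1:**
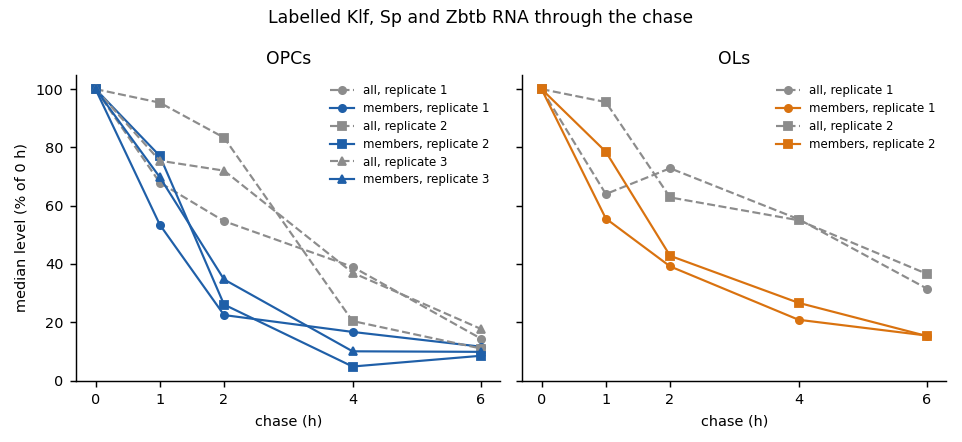
Median labelled RNA of the members (coloured, solid) and of all listed transcripts (grey, dashed) as a percentage of its 0 h level, against hours of chase, in 3 OPC and 2 OL replicates. The coloured lines lie below the grey line of the same replicate at every later time, and in OPC replicate 2 the members' median was 4.81% at 4 h and 8.50% at 6 h.

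The share of members under 50% of their 0 h level at 2 h gives the same picture gene by gene. It was 33, 31 and 26 of 40 members in OPC replicates 1, 2 and 3, where 44.6%, 20.6% and 25.6% of all transcripts were that low. It was 36 of 50 in both OL replicates, where 26.0% and 31.8% of all transcripts were. Late in the chase some members were listed at 0 in OPCs, at 4 h 2, 14 and 6 of 40 in replicates 1, 2 and 3, where 2.23%, 14.8% and 5.65% of all transcripts were, and the late levels of low members are therefore poorly resolved. The members were also less abundant than most transcripts at 0 h, with median levels of 7.22 to 11.1 FPKM in OPCs against 17.4 to 19.1 for all transcripts, and of 7.94 and 9.04 in OLs against 15.6 and 17.0.

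Whether each labelled mRNA fell through the chase was tested as a slope of log2(FPKM + 1) per hour, with the replicate as a block. All 40 members fell in OPCs, where 81.7% of all transcripts tested were called lower (limma, Benjamini-Hochberg adjusted p). Their slopes ran from -0.64 to -0.21 log2 per h, with a median of -0.43 against -0.38 for all transcripts. In OLs 48 of 50 members fell, where 68.4% of all transcripts were called lower, and the median slope was -0.33 against -0.20. The 2 exceptions were Sp9, a factor of forebrain interneuron development (slope -0.08, adjusted p = 0.15), and Zbtb48, a telomere-binding factor (slope -0.10, adjusted p = 0.11), which were at 1.01 to 1.29 and at 2.37 to 3.50 FPKM at 0 h. The spike-in scale sets the level of each later library, and with the libraries centred on a common median instead only 1 OPC member and 19 OL members were called lower and 3 and 2 called higher, with median slopes of 0.0057 and -0.090; over all transcripts this turned 368 higher and 6966 lower calls into 3392 and 1186 in OPCs, and 146 and 6668 into 3046 and 1345 in OLs.

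Half-lives, fitted by the authors to the chase of each replicate with a ceiling of 6 h, were short. The median over members was 1.08, 1.11 and 1.37 h in OPC replicates 1, 2 and 3, or 1.19 ± 0.16 h (SD, n = 3), against 2.39 ± 0.37 h for all transcripts. In OLs it was 1.5 and 1.93 h, or 1.71 ± 0.31 h (SD, n = 2), against 4.10 ± 0.07 h. In the OPC replicates 36, 38 and 35 of 40 members lay below the median of all transcripts of their replicate, and in the OL replicates 45 and 46 of 50 did. Half-lives at the 6 h ceiling, which made up 24.3% to 39.7% of all transcripts per replicate, were held by at most 2 members in any replicate.

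**Figure D2:**
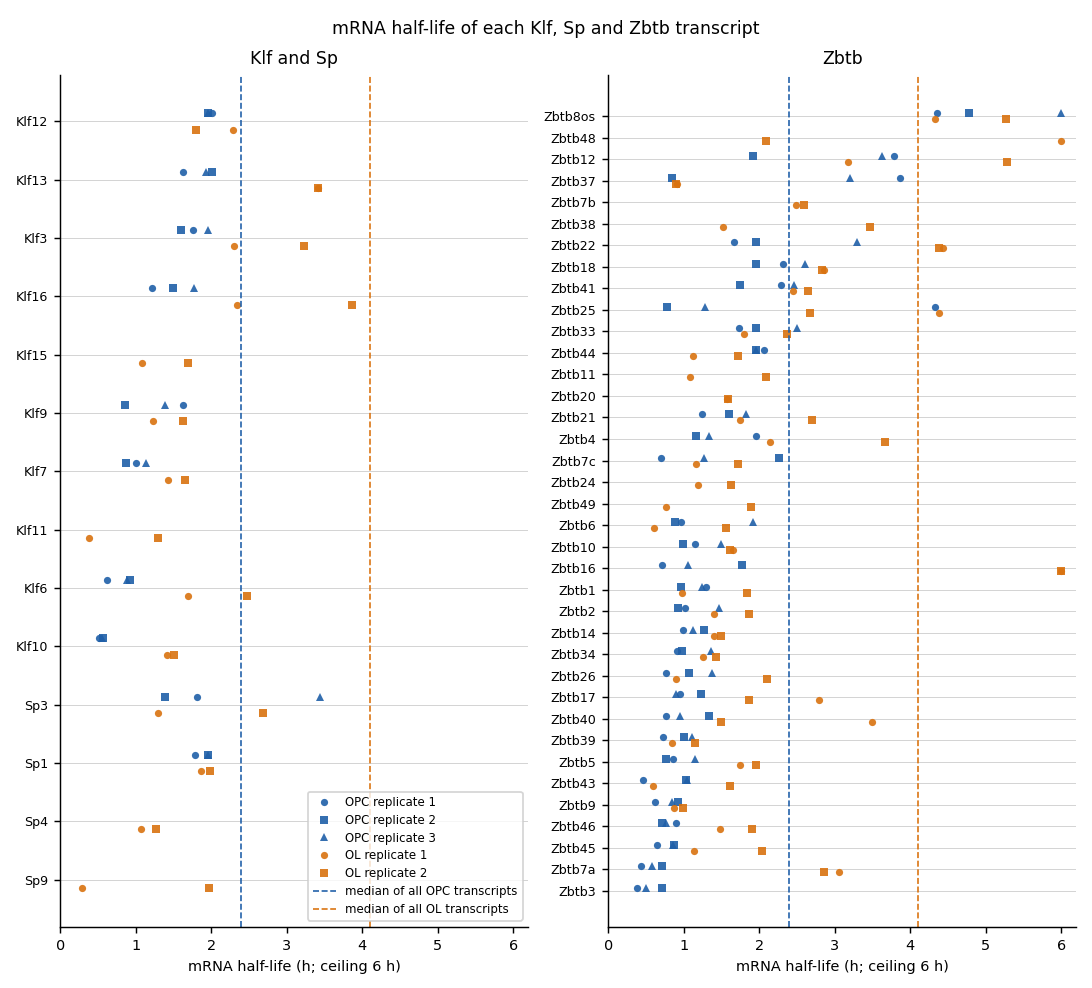
Half-life in hours (ceiling 6 h) of each of the 51 members, with OPC replicates in blue and OL replicates in orange and the mean of the replicate medians over all transcripts as dashed lines at 2.39 h and 4.10 h. Most points lie to the left of the line of their own colour, with Zbtb8os as the clearest exception.

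The long-lived exception carries the family name but not the family function. Zbtb8os encodes archease, a cofactor of the tRNA ligase complex, and is no zinc finger factor. Its OPC half-lives of 4.35, 4.78 and 6.00 h and OL half-lives of 4.33 and 5.27 h overlapped, and it was longer-lived than every other member in OPC replicates 1, 2 and 3. Without it the mean of the replicate medians was 1.15 ± 0.19 h in OPCs (n = 3) and 1.69 ± 0.31 h in OLs (n = 2).

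Equal half-lives in different replicates need care. A fit by least absolute deviations comes to rest at 1.96 h whenever the level is above the fitted curve at 1 and 2 h and below it at 4 and 6 h, whatever the size of the deviations. Of 120 OPC half-lives of members 11 lay within 0.005 h of this value, in 8 members, as did 11.9% of all OPC half-lives but 1.03% of those in OLs. Other orders of points above and below the curve can have resting values too, and these were not counted. Zbtb3, Zbtb7a and Zbtb46 in OPC replicate 2 and Zbtb16 in OPC replicate 1 were all at 0.7043 h. Sp1 in OL replicate 1 and Zbtb2 in OL replicate 2 were both at 1.858 h. Klf12, a repressor that binds CtBP, was at 2.00, 1.96 and 1.96 h in OPCs and Sp1, the founding GC-box factor, at 1.78, 1.96 and 1.96 h, so the small spread of their replicates is in part a property of the fit.

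Among the Klf factors half-lives in OPCs were shortest for Klf10, a TGF-beta-inducible early response factor, at 0.51, 0.56 and 0.55 h, and for Klf6, a factor known to be needed for myelination, at 0.61, 0.92 and 0.89 h. In OLs Klf10 was at 1.41 and 1.5 h and Klf6 at 1.69 and 2.48 h, and for both genes the OL replicates lay above all OPC replicates. Klf10 was called longer-lived in OLs, by 1.43 ± 0.06 on the log2 scale (SE; limma, adjusted p = 0.012), while Klf6 did not pass (1.37 ± 0.29, adjusted p = 0.11). The Klf10 call held without any 1 of the 5 replicates (adjusted p 0.026 to 0.048) and was lost with the replicate block (0.155). The chase levels show the same order, since at 1 h Klf10 retained 25.7%, 29.0% and 28.2% in OPCs and 55.1% and 57.7% in OLs. In absolute terms labelled Klf10 fell in OPCs from 46.5, 50.2 and 47.1 FPKM at 0 h to 3.33, 3.02 and 8.02 at 2 h.

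The other Klf factors shared by both cell types had longer mean half-lives in OPCs, and none was called different. Klf13, a repressor that binds Sin3a, was at 1.62, 2.01 and 1.93 h in OPCs and at 3.41 h in both OL replicates (log2 difference 0.89 ± 0.12, adjusted p = 0.058, and 0.030 without OPC replicate 1). Klf16 was at 1.21, 1.49 and 1.76 h against 2.34 and 3.86 h, and Klf3, a repressor that recruits CtBP, at 1.76, 1.60 and 1.96 h against 2.31 and 3.22 h. The OL values of these 3 genes were above all of their OPC values. Klf7, known for its role in axon growth, was at 1.01, 0.87 and 1.13 h against 1.43 and 1.65 h. Klf12 at 2.29 and 1.79 h in OLs and Klf9 at 1.62, 0.85 and 1.39 h against 1.23 and 1.63 h overlapped between the cell types. All 8 Klf differences were above 0, with a median of 0.76, as were 5663 of 8112 over all transcripts, and in 6 of 8 both OL values lay above all OPC values, which held for 35.9% of all transcripts.

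The Sp factors showed no such separation. Sp1 was at 1.86 and 1.98 h in OLs, close to its OPC values, and Sp3, which binds the same GC boxes, at 1.81, 1.39 and 3.44 h in OPCs and 1.29 and 2.69 h in OLs. The log2 differences were 0.02 ± 0.06 for Sp1 and -0.14 ± 0.59 for Sp3, and both missed the threshold. The replicates of Sp3 were far apart in both cell types.

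**Figure D3:**
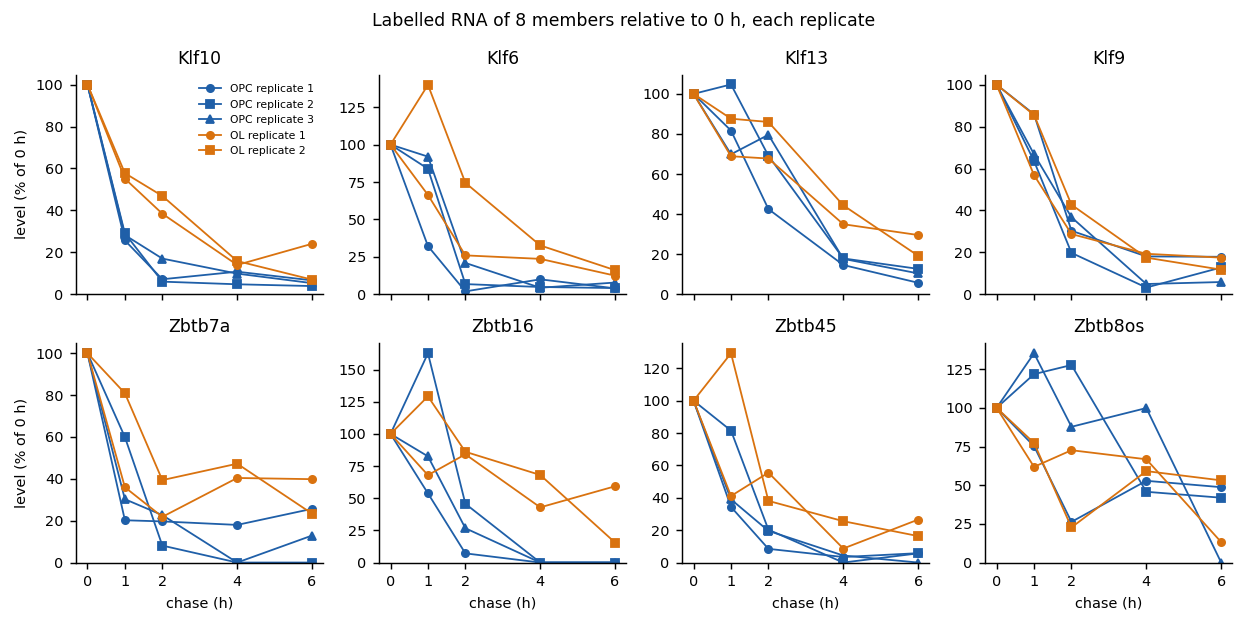
Labelled RNA relative to 0 h (%) against hours of chase for 8 members, with OPC replicates in blue and OL replicates in orange. Klf10 in OLs stayed above OPCs at 1 and 2 h, Klf9 overlapped, and Zbtb16 was at 0 in all 3 OPC replicates at 4 and 6 h but at 42.9% and 68.1% in OLs at 4 h.

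Among the 29 Zbtb factors tested 1 was called longer-lived in OLs and none shorter, where 3.39% and 0.148% of all transcripts were. Zbtb7a, also known as LRF, a regulator of blood cell development, was at 0.43, 0.70 and 0.58 h in OPCs and at 3.06 and 2.86 h in OLs, a log2 difference of 2.40 ± 0.25 (adjusted p = 0.043). The deposited OL half-lives lay far above those of all OPC replicates. A refit here to all libraries gave a log2 difference of 1.52 instead (limma adjusted p = 0.28). With the libraries rescaled to a common mean decay curve it was 0.70 (adjusted p = 0.55). In OL replicate 1 labelled Zbtb7a was at 21.8% of its 0 h level at 2 h but at 40.4% and 39.8% at 4 and 6 h. Its level was low, at 3.12 to 5.18 FPKM in OPCs and 5.67 and 5.70 in OLs, and the difference between cell types in its chase slope did not pass (0.12 ± 0.09 log2 per h, adjusted p = 0.36). The half-life call was lost in each of the 10 alternatives that could be run for it, with adjusted p from 0.051 to 0.60, including without OPC replicate 1 (0.057), 2 (0.075) or 3 (0.11) and without OL replicate 1 (0.16) or 2 (0.15).

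The 4 other Zbtb factors with the largest half-life differences did not pass. Zbtb16, also known as PLZF, was at 0.70, 1.77 and 1.05 h in OPCs and reached the ceiling of 6 h in OL replicates 1 and 2 (log2 difference 2.46 ± 0.46, adjusted p = 0.094), at levels of only 1.73 to 2.38 FPKM in the 5 libraries at 0 h. Zbtb37 went the other way, at 3.86, 0.85 and 3.20 h in OPCs and 0.91 and 0.90 h in OLs (-1.28 ± 0.83, adjusted p = 0.49), and OPC replicate 2 lay with the OLs. Zbtb40 was at 0.76, 1.33 and 0.95 h against 3.49 and 1.49 h (1.21 ± 0.51, adjusted p = 0.29). Zbtb17, the Myc partner Miz-1, was at 0.94, 1.23 and 0.90 h against 2.78 and 1.87 h (1.17 ± 0.26, adjusted p = 0.12), and for Zbtb40 and Zbtb17 the OL values were above all OPC values.

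Of the other Zbtb factors the shortest-lived in OPCs was Zbtb3, at 0.38, 0.70 and 0.49 h, which was not listed in OLs, followed by Zbtb7a, Zbtb45, Zbtb46 and Zbtb9 with means of 0.57 to 0.80 h. In OLs the shortest means were those of Zbtb37, Zbtb9, Zbtb39, Zbtb6 and Zbtb43, from 0.90 to 1.10 h. Zbtb9 was thus under 1 h in all 5 replicates, at 0.62, 0.92 and 0.85 h and at 0.87 and 0.99 h. Among the longest means in OPCs, after that of Zbtb8os, were those of Zbtb12 and Zbtb37, then Zbtb22 and Zbtb18, and in OLs those of Zbtb16, Zbtb8os, Zbtb22, Zbtb12 and Zbtb48, the last at 6.00 and 2.09 h. Zbtb12 was at 3.78, 1.92 and 3.62 h in OPCs and 3.17 and 5.28 h in OLs, Zbtb22 at 1.67, 1.96 and 3.29 h and 4.43 and 4.38 h, and Zbtb18, a repressor in neuronal development also known as RP58, at 2.32, 1.96 and 2.60 h and 2.86 and 2.83 h.

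Over all 39 members tested, the half-life differences between OLs and OPCs are given beside those of all transcripts, of which 24.3% to 39.7% per replicate sat at the 6 h ceiling. The median log2 difference was 0.45 for members and 0.37 for all, and 34 of 39 members were above 0, against 5663 of 8112 transcripts. The 2 members called longer-lived compare with 3.39% of all transcripts called longer-lived, and 0 members with 0.148% called shorter-lived (11 members had an unadjusted p under 0.05, against 1866 of 8112 transcripts). In 18 of 39 members both OL half-lives were above all OPC half-lives, against the 35.9% given above, and in 1 of 39 both were below, which was true of 2.01%. That 1 was Zbtb44, named after its values were seen, at 2.06, 1.96 and 1.96 h in OPCs and 1.11 and 1.72 h in OLs.

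The direction of these differences depends on the scale. Dividing each half-life by the median half-life of its replicate takes 0.90 off every log2 difference, which left 13 of 39 members above 0 and a median of -0.45, with Klf10 at 0.53 (adjusted p = 0.21), Zbtb7a at 1.5 (0.051) and Klf13 at -0.017. With the libraries rescaled to a common mean decay curve and the half-lives refitted, 27 of 39 were above 0, the median was 0.20, and Klf10 alone was called (1.27, adjusted p = 0.023). Over all transcripts the calls were then 91 longer and 194 shorter, against 275 and 12 on the authors' scale. The median of all transcripts, which the ceiling touches more than that of the members, was -0.53 after division by the replicate median and 0 to 2 decimals after rescaling.

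Slopes of log2(FPKM + 1) have no ceiling and give another view of the same chase. The added 1 FPKM flattens the slopes of low transcripts, and members had lower 0 h levels than most transcripts. With 0.1 FPKM added instead, the members' median difference was 0.17 log2 per h. The decline was shallower in OLs for 4 of 39 members, where 23.7% of all transcripts were called shallower, and steeper for none (7 members had an unadjusted p under 0.05, against 3178 of 8177 transcripts). The median difference was 0.10 log2 per h for members and 0.14 for all transcripts, with 30 of 39 and 6792 of 8177 above 0. The 4 called shallower were Zbtb17 (-0.57, -0.67 and -0.50 log2 per h in OPCs, -0.20 and -0.31 in OLs), Zbtb45, known as a regulator of glial progenitors (-0.55, -0.65 and -0.73 against -0.28 and -0.38), Klf16 (-0.50, -0.56 and -0.62 against -0.26 in both) and Klf12 (-0.44, -0.59 and -0.62 against -0.27 and -0.29). In each the OL slopes lay above all OPC slopes. The differences were 0.33 ± 0.08, 0.31 ± 0.08, 0.30 ± 0.08 and 0.27 ± 0.08 log2 per h, with adjusted p of 0.017, 0.022, 0.019 and 0.034. Klf10 did not pass in this measure (0.15 ± 0.09, adjusted p = 0.22), nor did Zbtb40 (0.23, 0.060), Zbtb12 (0.25, adjusted p 0.16) or Zbtb16 (0.16, 0.17). Alternatives that called these were the replicate block for Zbtb12 (0.017), leaving out OPC replicate 1 for Zbtb12 (0.036) and Zbtb40 (0.037), 1 fit over 25 libraries for Zbtb40 (0.039) and a pseudocount of 0.1 FPKM for Zbtb16 (0.047). Zbtb12 was at 0 FPKM in OPC replicate 2 at 4 and 6 h, and without that replicate its difference was 0.088 (limma adjusted p = 0.46). The 4 calls were lost without OL replicate 1 (adjusted p 0.14 to 0.21) and without OL replicate 2 (0.082 to 0.15), that of Klf12 also without OPC replicate 2 (0.052) or 3 (0.085) or with the replicate block (0.083), and that of Zbtb45 without OPC replicate 3 (0.059) or in 1 fit over 25 libraries (0.054). A pseudocount of 0.1 FPKM ended the calls of Zbtb17 (0.055), Klf16 (0.075) and Zbtb45 (0.11), though their differences were then larger, at 0.80, 0.36 and 0.54 log2 per h. Klf12 kept its call at 0.70 (limma adjusted p = 0.025). With centred libraries, which takes 0.21 off every difference and moves the medians to -0.11 for members and -0.068 for all transcripts, 0 members were called shallower and 5 steeper, and over all transcripts 199 and 812 against 1937 and 7.

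The abundance of labelled mRNA at 0 h, after 24 h of labelling, gave the most calls among the Klf factors. Of 8 shared, 2 were called higher and 3 lower in OLs, where 13.8% and 15.8% of all transcripts were. The study describes spike-in normalisation of every time point, but by their decimals the deposited 0 h values appear unscaled. If they are, a 0 h difference between cell types is one in the share of labelled reads, not in spike-in-scaled amount. Whether they are was not tested. Mbp alone reached 1295 and 3213 FPKM in the OL libraries. Klf9, a gene known to be induced by thyroid hormone, was at 6.25, 10.2 and 10.4 FPKM in OPCs and at 51.8 and 40.3 FPKM in OLs. Both OL values were far above all OPC values, and the log2 difference was 2.26 ± 0.27 (limma on log2(FPKM + 1), adjusted p = 0.00095), or 5.14-fold between the mean FPKM. Klf13, its close relative, was also higher in OLs, at 28.2 and 25.9 FPKM against 14.6, 13.2 and 16.9 (0.83 ± 0.22, adjusted p = 0.024). Klf15, a metabolic regulator known to respond to glucocorticoids, was at 14.5 and 22.3 FPKM in OLs and not listed in OPCs, where a listed transcript had to reach 1 FPKM at 0 h and be above 0 at 1 and 2 h.

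Klf10, Klf16 and Klf3 were lower in OLs. Klf10 was at 9.24 and 17.9 FPKM in OLs against 46.5, 50.2 and 47.1 in OPCs, a log2 difference of -1.81 ± 0.29 (adjusted p = 0.0031). Its mean FPKM was thus 3.53-fold lower in OLs while its half-life was longer. Klf16 was at 4.81 and 5.61 FPKM against 15.4, 16.2 and 19.1 (-1.52 ± 0.22, adjusted p = 0.0020), and Klf3 at 11.3 and 14.2 against 27.7, 49.3 and 38.9 (-1.49 ± 0.28, adjusted p = 0.0070). No OL value of these 3 genes reached any of its OPC values.

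For Klf6, Klf7 and Klf12 and the Sp factors no difference in level was called. Klf6 was at 20.9, 27.5 and 22.9 FPKM in OPCs and 12.4 and 24.4 in OLs, Klf7 at 5.78, 9.87 and 10.7 against 9.15 and 12.4, and Klf12 at 4.89, 8.55 and 8.67 against 6.83 and 8.24. Sp1 was at 28.8, 61.4 and 44.0 FPKM in OPCs and 27.0 and 31.4 in OLs (log2 difference -0.54 ± 0.32), and Sp3 at 21.8, 51.3 and 32.4 against 34.8 and 34.6 (0.06 ± 0.34). Sp1 and Sp3 were the most abundant members of their family in both cell types. Listed in OLs only were Klf11, a relative of Klf10, at 1.74 and 3.99 FPKM with half-lives of 0.38 and 1.29 h, Sp4, a factor of neurons, at 7.41 and 5.87 FPKM with 1.06 and 1.27 h, and Sp9 at 1.29 and 1.01 FPKM with 0.29 and 1.98 h. Klf15 had half-lives of 1.08 and 1.69 h.

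**Figure D4:**
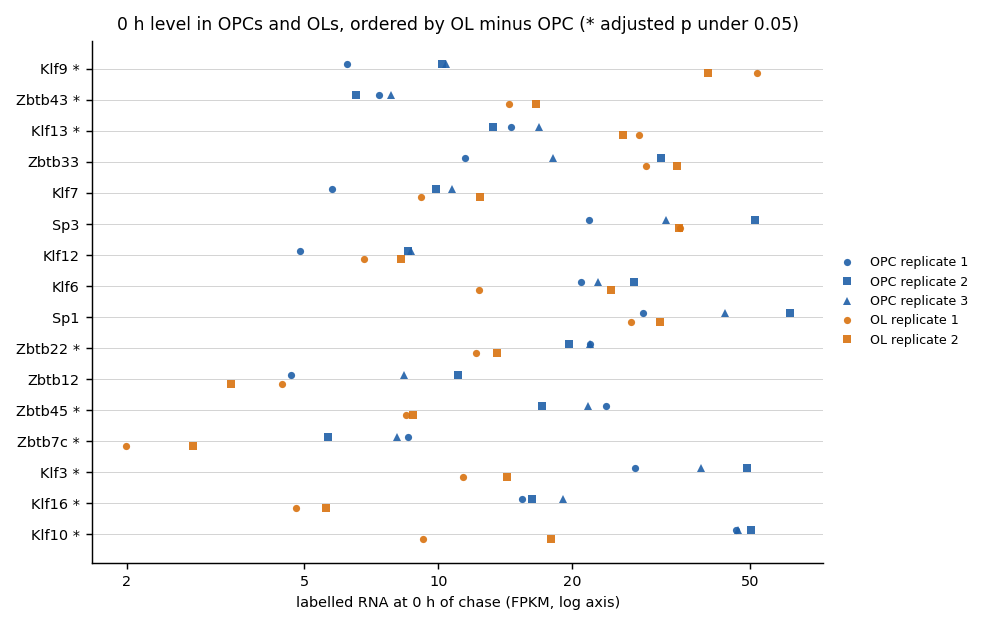
Labelled RNA at 0 h (FPKM, log axis) of the shared Klf and Sp factors and of the Zbtb factors that were called or had the largest differences, with each replicate as a point and an asterisk for an adjusted p under 0.05. Klf9 is at the top with OLs above 40 FPKM, Klf10 at the bottom, and in Zbtb12, Zbtb33, Sp1 and Sp3 the 3 OPC points are spread over a wide range.

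Among the 29 shared Zbtb factors 1 was higher and 3 were lower in OLs, where 13.8% of all transcripts were called higher and 15.8% lower. Zbtb43 was at 14.4 and 16.6 FPKM in OLs against 7.35, 6.54 and 7.82 in OPCs (1.00 ± 0.21, adjusted p = 0.011). Zbtb45 was at 8.46 and 8.77 FPKM against 23.7, 17.1 and 21.7 (-1.17 ± 0.23, adjusted p = 0.0078), Zbtb7c at 1.99 and 2.82 against 8.54, 5.66 and 8.09 (-1.3 ± 0.25, adjusted p = 0.0078), and Zbtb22 at 12.1 and 13.6 against 21.9, 19.7 and 21.9 (-0.68 ± 0.21, adjusted p = 0.042). In none of these did the cell types overlap. Zbtb33, known as Kaiso, which binds methylated DNA, did not pass at 11.5, 31.6 and 18.1 FPKM against 29.3 and 34.2 (0.72 ± 0.38, adjusted p = 0.18), nor did Zbtb12 at 4.68, 11.1 and 8.37 against 4.46 and 3.43 (-0.81 ± 0.33, adjusted p = 0.099).

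The levels of the other Zbtb factors spanned about the same range in both cell types. The most abundant in OPCs by mean FPKM were Zbtb18 (24.9), Zbtb41 (21.3), Zbtb22, Zbtb45 and Zbtb33, and in OLs Zbtb33 (31.8), Zbtb6 (31.2), Zbtb41 (25.8), Zbtb18 and Zbtb43. Zbtb4, which also binds methylated DNA, was lowest in both, at 2.05, 1.12 and 2.09 FPKM and at 1.14 and 2.41. Zbtb38, listed in OLs only, was also low there, at 2.12 and 3.27 FPKM. Of the 50 members in the OL list 11 were absent from the OPC list (22.0%, against 16.1% of all OL transcripts), 7 of them Zbtb. The reverse held for Zbtb3 alone, at 4.76, 3.90 and 4.35 FPKM in OPCs.

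Over all 39 shared members the 0 h level rose in 3 and fell in 6, where 13.8% of all 8177 transcripts were called higher and 15.8% lower, and the median log2 difference was 0.01 against -0.01. Among the 8 Klf factors alone 2 rose and 3 fell. The calls for Klf9, Klf10 and Klf16 were kept in all 9 alternatives run for each. That of Klf13 was lost without OPC replicate 3 (adjusted p = 0.065), OL replicate 1 (0.13) or 2 (0.086) and with the replicate block (0.054). That of Zbtb22 was lost without OPC replicate 1 (0.058) or 3 (0.15) or OL replicate 1 (0.19) or 2 (0.11) and with the replicate block (0.17). Also lost were those of Zbtb43 (0.055, 0.075) and Zbtb45 (0.064, 0.050) without OL replicate 1 or 2, and those of Klf3 (0.073) and Zbtb7c (0.077) without OL replicate 1, whereas Zbtb12 was called without OPC replicate 1 (0.0097) and Zbtb33 without OPC replicate 2 (0.028).

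The members differ in codon composition, which the rule did not use and which the study set against stability. GC3, the share of codons that end in G or C, ran from 35.2% in Zbtb33 to 89.7% in Sp9, with a median of 60.8% against 60.6% for all transcripts. The AAA share of the lysine codons AAA and AAG ran from 7.69% in Zbtb7a to 75.0%, with a median of 36.8% against 37.5%, and the UUU share of the phenylalanine codons UUU and UUC had a median of 42.1% against 44.4%. Across the 39 members the half-life difference between OLs and OPCs was larger where GC3 was higher (Spearman's rho 0.50) and where the AAA share (-0.56) or UUU share (-0.52) was lower. Over all transcripts the same coefficients were 0.27, -0.22 and -0.21.

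**Figure D5:**
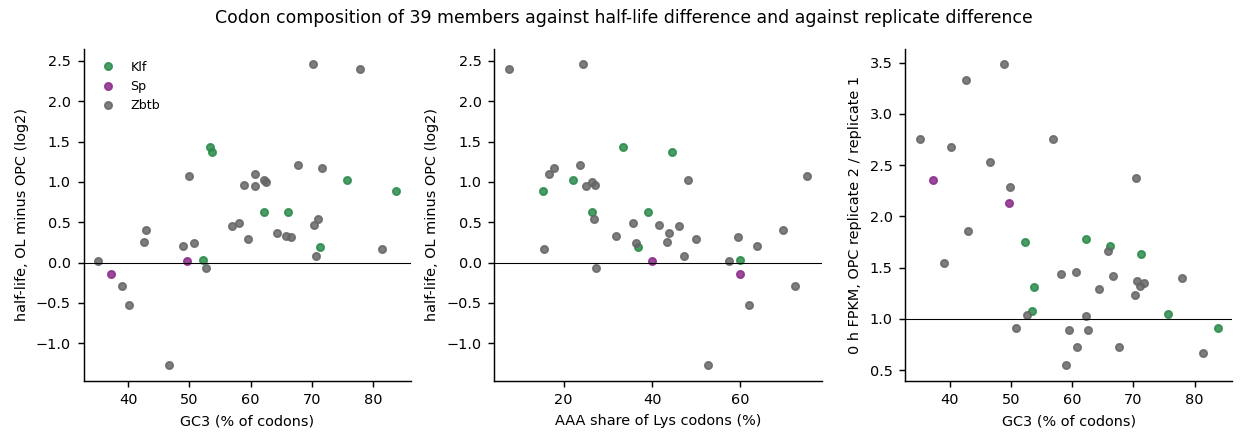
Each point is 1 of 39 members (Klf green, Sp purple, Zbtb grey); the left and middle panels plot the OL minus OPC log2 half-life against GC3 and against the AAA share of lysine codons, and the right panel plots the ratio of 0 h FPKM in OPC replicate 2 to replicate 1 against GC3. The first rises (rho 0.50), the second falls (rho -0.56) and the third falls (rho -0.53).

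These relations rest on points that share the same 5 replicates. GC3 and the AAA and UUU shares also moved with differences between replicates of a single cell type. The 0 h level in OPC replicate 2 against replicate 1 fell with GC3 (rho -0.53 over 39 members, -0.49 over all 8177 transcripts). It rose with the AAA share (0.61 over members, 0.42 over all) and with the UUU share (0.50 and 0.35). The members' median ratio was 1.42 against 0.99 for all. For OPC replicate 3 against replicate 1 rho with GC3 was -0.25 over members and -0.33 over all, with a median ratio of 1.40 against 1.00. Over members it was 0.39 with the AAA share and 0.30 with the UUU share. Zbtb41 was at 9.41 FPKM in OPC replicate 1 and 31.4 in replicate 2, and Zbtb33 at 11.5 and 31.6, whereas Klf10 was at 46.5 and 50.2. Between the OL replicates the members' coefficients were smaller (rho -0.02 for GC3, -0.14 for the AAA share and -0.05 for the UUU share). The part of this replicate difference in the half-life relation was not tested. For ATTTA per kb, rho with the half-life difference was -0.28 over 39 members and -0.089 over all transcripts, and with the slope difference -0.49 and -0.052. Within a cell type the coefficients with the half-life itself were smaller for both features, at 0.21 in OPCs and -0.26 in OLs for ATTTA per kb and at -0.20 and 0.20 for GC3.

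Other genes of the same pathways were taken from a list of 34, of which 23 were listed in both cell types. At 0 h 2 rose and 2 fell in OLs, where the background was the 13.8% and 15.8% given above. The acetyltransferase gene Kat2b was higher at 6.81 and 11.0 FPKM in OLs against 2.16, 4.33 and 3.69 in OPCs (log2 difference 1.17, adjusted p = 0.023). Hdac3, the deacetylase of the NCOR complex, was lower at 48.5 and 36.1 against 77.7, 64.3 and 71.8 (-0.75, adjusted p = 0.042), as was the BTB protein gene Nacc1 at 28.3 and 37.5 against 63.2, 53.9 and 54.6 (-0.79, adjusted p = 0.034). Half-lives were called longer in 0 and shorter in 1 of the 23, Hdac2 at 6.00 h in all OPC replicates and 3.01 and 3.47 h in OLs (-0.89, adjusted p = 0.031).

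The corepressor and cofactor genes of this list had longer median half-lives than the factors. For the 11 BTB corepressors and partners the median was 2.05, 1.96 and 2.17 h for OPC replicates 1, 2 and 3 and 4.89 and 4.73 h for OL replicates 1 and 2. For the listed Klf and Sp cofactors it was 3.01, 2.67 and 4.55 h and then 3.01 and 3.47 h, against the members' 1.08 to 1.37 h and 1.5 and 1.93 h. Hdac3 and the CtBP gene Ctbp1 were at the ceiling in all 5 replicates. Of 9 BTB zinc finger genes that the name rule does not match, Gzf1, Mynn and Zfp131 were listed in both cell types, with half-lives of 0.82 to 1.89 h in OPCs and 0.73 to 2.16 h in OLs. Bcl6, at 1.21 and 1.71 h, and Hic2, at 2.70 and 2.41 h, were listed in OLs only. Egr1, an immediate early gene that binds GC-rich sites as Sp1 does, was at 1.01, 0.70 and 0.90 h in OPCs and 6.00 and 2.87 h in OLs (2.27, adjusted p = 0.090).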

How the data were processed

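Labelled RNA was measured in 3 OPC and 2 OL replicates at 0, 1, 2, 4 and 6 h of chase. Per the labels and the study's methods, the authors aligned reads to GRCm38 with HISAT2 2.1.0, tabulated FPKM with StringTie 1.3.5 over canonical coding transcripts (GENCODE vM9), normalised to 2 labelled spike-ins and dropped those under 1 FPKM at 0 h or at 0 at 1 and 2 h. By their decimals the 0 h columns appear unscaled. An error in a spike-in factor moves every transcript of its library alike. Half-lives (hours) were deposited per replicate, as least absolute deviation fits of the authors that stop at 6 h. A refit here fell within 0.01 h for 98.2% to 99.9% of transcripts. Members were among the exceptions, since it moved the log2 half-life difference of Zbtb7a from 2.397 to 1.523 and that of Zbtb17 from 1.167 to 1.385. Read depth is unknown, so no counting error is given, and precision rests on the replicates.

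Columns and samples were grouped by cell type, replicate and time in their labels. FPKM were tested as log2(FPKM + 1), and half-lives as log2 h, with limma 3.58.1 (R 4.3.3) over all transcripts listed for both cell types (8177 levels and slopes, 8112 half-lives), with Benjamini-Hochberg adjustment and a threshold of 0.05. Two-sided exact permutation tests of 3 against 2 replicates cannot give a p below 0.1 and were not used. Slopes of log2(FPKM + 1) against time were fitted per replicate for the comparison of cell types, and with the replicate as a block for the decline within a cell type. The study's methods describe each OL replicate as the counterpart of an OPC replicate. Which numbers belong together is not given in the sources used here, and correlations of replicate deviations between cell types ran from -0.105 to 0.105, so replicate numbers were not used to pair OPCs with OLs. Alternatives were another pseudocount, a filter at a mean of 5 FPKM, centred or rescaled libraries, other half-life fits, the replicate block and leaving out each replicate. The main fits were tested on simulated data with independent noise and known changes. The replicate block between cell types, the 1 fit over 25 libraries and the centred or rescaled libraries were not.

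Named were every Klf and Sp transcript, every Zbtb transcript called in a comparison of cell types and the 5 with the largest differences in each, with the 5 highest and lowest by level or half-life. Members and lists were chosen with earlier results of these data known. Sequences and coding features came from GENCODE M21 on GRCm38, in which all 51 members were matched by transcript identifier. Protein sequences were not used here, and values of some marker and partner genes are not reported here.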

Additional observations from a re-analysis of the deposited data

Results flagged for a closer look

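The chase slope of 4 of 39 members differed between OPCs and OLs in a test of the difference itself (limma on per-replicate slopes of log2(FPKM + 1), adjusted p). Of all transcripts tested, 23.7% were called shallower in OLs. The OL minus OPC difference was 0.33 log2 per h for Zbtb17, 0.31 for Zbtb45, 0.30 for Klf16 and 0.27 for Klf12, shallower in OLs in both OL replicates against all 3 OPC replicates. The median difference over all 8177 transcripts was 0.14 log2 per h. Centring the libraries takes 0.21 off every difference, which leaves all transcripts at a median of -0.068 and these 4 at 0.12, 0.099, 0.086 and 0.059, with adjusted p of 0.29 to 0.64. Groups of 3 and 2 replicates are too small for a check of single outlying samples, and the alternatives that lost these calls are given above.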

How the results depend on the processing

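Centring each replicate moved the half-life result most: members called longer-lived went from 2 to 0 and their median log2 difference from 0.45 to -0.45, with Klf13 reversed at -0.017. The number called longer-lived was 1 after refits without the 6 h libraries, with rescaled libraries (median 0.20) or with all libraries, and 1 at a mean of at least 5 FPKM. The refit with all libraries, and counts without Zbtb8os, were added after seeing the data, and the latter changed no count of members by more than 1.5 times. With centred libraries 3 members rose and 1 fell in OPCs (median slope 0.0057), 2 rose and 19 fell in OLs (-0.090), and for the difference in slope 0 were shallower and 5 steeper (median -0.11), with Zbtb16 reversed at -0.051. A pseudocount of 0.1 FPKM made the median slopes steeper, at -0.61 in OPCs and -0.44 in OLs. Leaving out 1 replicate gave 1 (either OL replicate) to 6 (OPC 2) members higher and 2 (OL 1) to 10 (OPC 1) lower at 0 h, 1 longer-lived without OPC 2 or 3 or either OL replicate, 1 shorter-lived without OL 2, median half-life differences of 0.32 to 0.71 (highest without OL 1), and 0 (either OL replicate) to 7 (OPC 1) shallower slopes, with 2 without OPC 3. Whether the 2 shared replicate numbers pair OPC and OL samples is not known. With the replicate block 0 members were called longer-lived (median 0.60), 2 higher and 5 lower in level and 4 shallower (Zbtb12 in place of Klf12), and the decline without the block had 40 and 47 members lower. Of 254 results for single genes, 197 stayed on their side of the threshold, 47 lost and 8 gained a call. Depth is unknown, and members listed at 0 late in the OPC chase limit slopes and half-lives of low transcripts.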

Other observations

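Across the 39 shared members, those with a lower 0 h level in OLs tended to have the larger half-life differences. Spearman's rho between the OL minus OPC log2 difference in level and that in half-life was -0.47 (Pearson's r -0.31) over 39 members and -0.01 over 8112 transcripts, as a description across genes that share the same replicates and whose half-life is scaled by the 0 h level. Klf10 had the largest fall in level (-1.81) with a longer half-life (1.43), Klf16 (-1.52 and 1.03) and Klf3 (-1.49 and 0.63) lay on the same side, and Klf9 had the largest rise in level (2.26) with a half-life difference of 0.19. Not every gene followed this. Klf13 rose in level (0.83) with a half-life difference of 0.89, and Zbtb7c fell (-1.30) with one of 0.16.

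Proliferation markers had lower means in OLs, and Top2a and Mki67 were uneven among OPC replicates 1, 2 and 3. Top2a was at 33.7, 130 and 81.9 FPKM in OPCs and 32.2 and 13.9 in OLs, Mki67 at 8.46, 41.3 and 30.2 against 10.4 and 4.73, and Ccnb1, which alone passed the test, at 66.5, 67.0 and 77.1 against 10.9 and 2.47 (log2 difference -3.47, limma adjusted p = 0.0013).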
